A study of Mus musculus with 12 samples.

Results

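Expression of 7 globin and haem genes was followed in the dorsal hippocampus of mouse pups. They are the alpha globin genes Hba-a1 and Hba-a2, the beta globin genes Hbb-bs and Hbb-bt, the red cell haem synthesis gene Alas2, and the tissue globins Cygb and Ngb. They were taken by symbol from the 52634 genes of the table, and all 7 had enough reads to be tested, as did 17631 genes in all. Gene expression was measured by RNA sequencing of poly(A) libraries, 12 in number, on postnatal day 7. Mice of the genotype SERTfl/fl, called controls here, carry a floxed serotonin transporter gene (Slc6a4). In SERTPyramid mice this gene is deleted in pyramidal neurons, the excitatory principal cells of the hippocampus, so both genotypes share the floxed allele. There were 3 libraries for each genotype and labelled sex, and each was made from tissue pooled from 4 mice. Not given in the sources used here are the Cre line, the strain background and whether the mice were perfused. Nothing states that the pools came from separate litters, so a p-value here measures spread among these libraries, which may be technical.

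Haemoglobin carries oxygen in red cells as a tetramer of alpha and beta chains, each of which holds a haem group. Red cells make the haem through their own form of the first enzyme of the pathway, 5-aminolevulinate synthase, encoded by Alas2, whereas other cells use Alas1. Young red cells (reticulocytes) still hold globin mRNA when they reach the blood, and globin transcripts have also been described in some neurons and glia. Cytoglobin (Cygb) is a globin of fibroblast-like cells, pericytes and some interneurons, and neuroglobin (Ngb) is a globin of neurons. In bulk tissue, fewer cells of a type and less RNA per cell cannot be told apart.

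The 2 alpha genes are near-identical copies of each other, as are the 2 beta genes, which limits how far reads can be assigned to one or the other. The stretches below, 60 coding bases each from the GENCODE M21 transcripts, are shown because they hold the only base by which the coding sequences of each pair differ, which is in capitals.
Hba-a1: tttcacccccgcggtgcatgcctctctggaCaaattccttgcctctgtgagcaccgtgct
Hba-a2: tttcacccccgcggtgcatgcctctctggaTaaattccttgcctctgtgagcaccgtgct
Hbb-bs: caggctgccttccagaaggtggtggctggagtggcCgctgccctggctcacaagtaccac
Hbb-bt: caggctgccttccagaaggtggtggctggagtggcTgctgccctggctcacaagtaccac
The stretches lie in GRCm38 at chr11:32284313-32284372 and chr11:32297130-32297189 on the plus strand, and at chr7:103826668-103826727 and chr7:103812659-103812718 on the minus strand. Hba-a1 and Hba-a2 differed at 1 of 426 coding bases, at position 381 counted from the first base of the start codon. Hbb-bs and Hbb-bt differed at 1 of 441 bases, at position 417. Over whole transcripts, 72.3% of the 50-base windows of Hba-a1 also occurred in Hba-a2, and 53.2% of those of Hbb-bs occurred in Hbb-bt. The other way round, the shares were 89.3% for Hba-a2 and 58.3% for Hbb-bt. The sources used here do not say how reads that fit both copies were counted, and the split within each pair is therefore uncertain. If such reads were left out, the levels of these genes would be too low, and by unequal amounts. Their levels, and their ratios to each other and to the other members, are therefore uncertain too.

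The blood globin genes also share letters ahead of their start sites, and 1 alpha and 1 beta gene are shown for that reason. Each line holds the 100 bases before the start site given by RefSeq in GRCm38.p6, and capitals mark matches to the TATA-like letters ATATAA, to the CCAAT box letters CCAAT and to the letters CACCC, a motif of erythroid promoters.
Hba-a2: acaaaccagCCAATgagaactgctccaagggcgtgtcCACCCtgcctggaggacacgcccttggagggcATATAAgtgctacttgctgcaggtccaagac
Hbb-bs: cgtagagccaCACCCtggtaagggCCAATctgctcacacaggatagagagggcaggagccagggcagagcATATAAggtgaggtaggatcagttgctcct
The windows are chr11:32296392-32296491 on the plus strand and chr7:103827929-103828028 on the minus strand. Both strands were searched for these motifs and for the GATA motif, GATAA. All 4 blood globin genes held the first 3 of these 4 motifs, with ATATAA starting 28 to 31 bases before the start site. Among all 32851 windows of this length, 3.74% held ATATAA, 18.9% the CCAAT box, 27.2% the CACCC motif and 0.201% all 3. Alas2 held 3 CACCC matches on the other strand and 1 GATA match, a motif found in 8.55% of windows, and neither of the other motifs. A match is a description of the letters, not a measured binding site.

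Library totals were 18747249 to 25522347 counts, and 3 counts, the most that a count of 0 allows, equal 0.118 to 0.160 CPM (counts per 1000000 counts of the library) for counting error only. In 10 of 12 libraries, all but control replicate 1 of either label, Xist and Y-linked transcripts did not match the labelled sex, so female and male name labels throughout. By these transcripts control replicate 1 differed from the other libraries of its label, so each genotype comparison within a label was unbalanced for them. Control replicate 3 labelled female had 527 Xist counts beside 2849 Y-linked counts, where other libraries high in Y-linked counts had 13 to 59 Xist counts. Slc6a4 had 0 to 17 counts per library and hardly checks the genotype. The neuronal markers Camk2a (1995 to 2680 CPM) and Slc17a7 (1110 to 1323 CPM) were high in every library. The choroid plexus is an epithelium-covered tissue inside the ventricle beside the hippocampus. The summed level of 10 choroid plexus markers ran from 32.0 CPM in labelled-female SERTPyramid replicate 3 to 2535 CPM in labelled-male SERTPyramid replicate 1.

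All 7 genes were detected in every library. The order of levels below holds for the counts as deposited, since the counting of reads shared between globin copies is not known. The beta globin gene Hbb-bs (ENSMUSG00000052305, chr7:103826534-103828096, minus strand) was the most abundant of the 7 per length, with 37.8 ± 5.24 RPKM (reads per kilobase of exon, scaled to library size as CPM is; mean ± SD, n = 12). Cygb (ENSMUSG00000020810, chr11:116645595-116654313, minus strand) followed with 35.0 ± 7.39 RPKM. Hbb-bs was above Cygb in 10 of 12 libraries, but the ranges overlapped, 30.5 to 46.9 against 24.8 to 51.0 RPKM. The other beta gene, Hbb-bt (ENSMUSG00000073940, chr7:103812524-103813996, minus strand), had 12.02 ± 1.66 RPKM, below Cygb in all 12 libraries. The alpha genes Hba-a1 (ENSMUSG00000069919, chr11:32283511-32284465, plus strand) and Hba-a2 (ENSMUSG00000069917, chr11:32296489-32297298, plus strand) had 10.2 ± 1.39 and 8.34 ± 1.30 RPKM. Hbb-bt was above Hba-a1 in 11 libraries and Hba-a1 above Hba-a2 in 11, again with overlapping ranges. Alas2 (ENSMUSG00000025270, chrX:150547375-150570638, plus strand) had 1.72 ± 0.354 RPKM, below Hba-a2 in all 12 libraries, and Ngb (ENSMUSG00000021032, chr12:87097531-87102539, minus strand) had 1.38 ± 0.199 RPKM. Alas2 and Ngb were the least abundant and their ranges overlapped, Alas2 being the higher in 8 of 12 libraries.

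Antisense genes share exon bases with some of these genes, and the library kit does not mark strand. Apex2 shares 311 of the 2403 exon bases of Alas2, and Prcd shares 201 of the 2331 exon bases of Cygb. Prcd itself had 27 to 65 counts per library against 1217 to 2760 for Cygb.

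**Figure D1:**
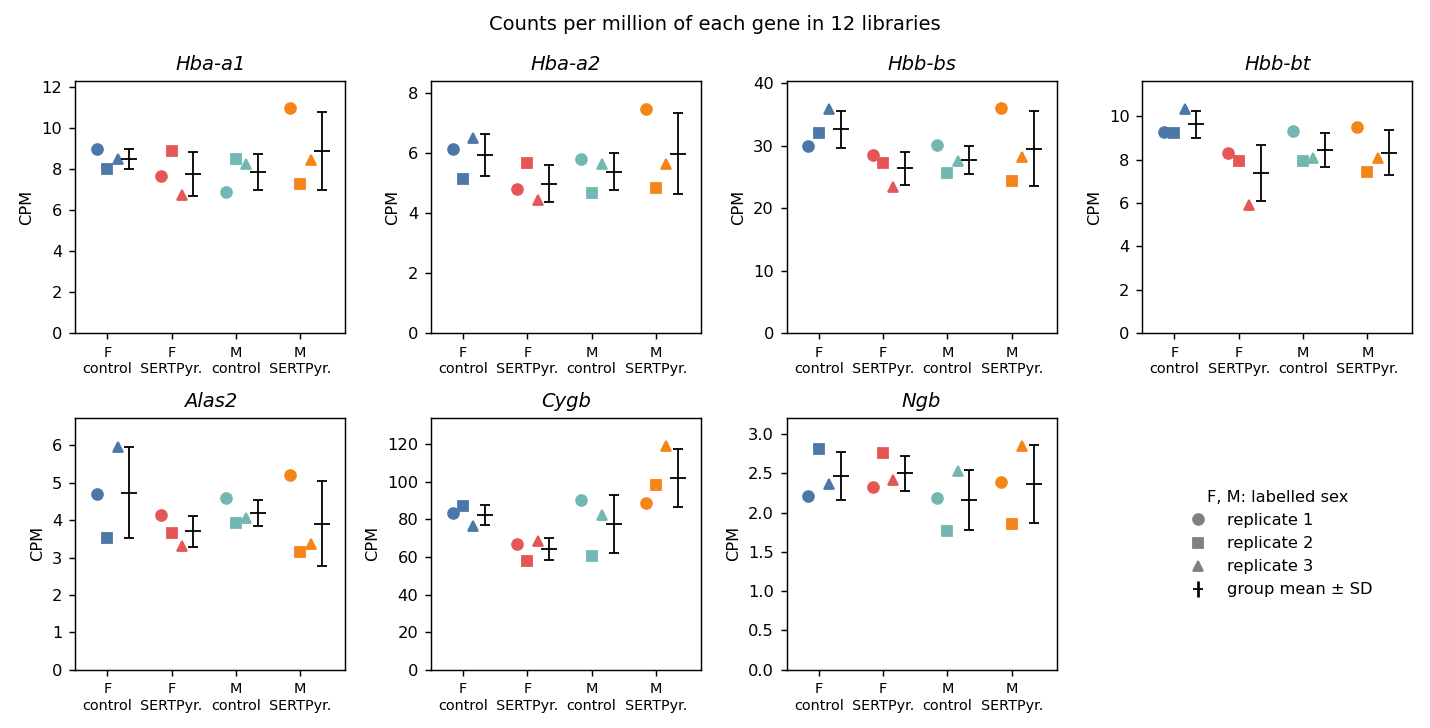
CPM (vertical axes, each from 0) of the 7 genes in the 12 libraries, grouped by labelled sex (F, M) and genotype; symbols are replicates and bars are the group mean ± SD of 3 libraries. Hbb-bs, Hbb-bt and Cygb are lower in all 3 SERTPyramid libraries than in all 3 controls labelled female, while among libraries labelled male the groups overlap for all 7 genes.

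The beta globin genes were compared first between genotypes. Hbb-bs had 29.9, 32.1 and 35.8 CPM in the controls labelled female and 28.5, 27.2 and 23.4 CPM in the SERTPyramid libraries labelled female. It had 30.1, 25.6 and 27.6 CPM in the controls labelled male, and 36.1, 24.3 and 28.3 CPM in SERTPyramid. The female-labelled groups did not overlap, with SERTPyramid below the controls, while the male-labelled SERTPyramid libraries held both a lower and a higher value than any of their controls. The log2 fold change of Hbb-bs was -0.32 ± 0.12 (SE) among libraries labelled female, with an adjusted p of 0.568 in edgeR's quasi-likelihood test with Benjamini-Hochberg adjustment. Among libraries labelled male it was 0.08 ± 0.12 (edgeR adjusted p = 0.999).

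Hbb-bt had 9.29, 9.23 and 10.3 CPM in controls labelled female, and 8.32, 7.93 and 5.93 CPM in SERTPyramid. The groups labelled female again did not overlap, and SERTPyramid replicate 3 was the lowest of all 12 libraries. Controls labelled male had 9.33, 7.91 and 8.08 CPM and SERTPyramid libraries labelled male had 9.48, 7.44 and 8.06 CPM, which overlapped. The log2 fold change of Hbb-bt was -0.40 ± 0.12 (SE, edgeR adjusted p = 0.530) among libraries labelled female, and -0.03 ± 0.12 (SE, edgeR adjusted p = 0.999) among those labelled male. Without SERTPyramid replicate 3 labelled female, the library with the fewest choroid plexus reads, the female-labelled value was -0.27 for Hbb-bt and -0.25 for Hbb-bs.

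Among libraries labelled female the fitted differences of the alpha globin genes were smaller than those of the beta genes. Hba-a1 had 8.99, 7.996 and 8.51 CPM in controls and 7.69, 8.88 and 6.73 CPM in SERTPyramid libraries labelled female, and Hba-a2 had 6.12, 5.15 and 6.49 against 4.81, 5.65 and 4.44 CPM. For both genes the groups overlapped, since SERTPyramid replicate 2 exceeded at least 1 control. Among libraries labelled male, Hba-a1 had 6.88, 8.50 and 8.25 CPM in controls and 10.98, 7.27 and 8.44 CPM in SERTPyramid, and Hba-a2 had 5.81, 4.66 and 5.64 against 7.48, 4.82 and 5.64 CPM. SERTPyramid replicate 1 labelled male was the highest of all 12 libraries for both alpha genes. The log2 fold change among libraries labelled female was -0.15 ± 0.14 (SE) for Hba-a1 and -0.27 ± 0.15 (SE) for Hba-a2, with edgeR adjusted p-values of 0.817 and 0.697. Among libraries labelled male it was 0.15 ± 0.14 and 0.15 ± 0.15 (SE, edgeR adjusted p = 0.999 each). Leaving out the male-labelled SERTPyramid replicate 1 gave -0.02 and -0.04.

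Alas2, the red cell form of the first haem enzyme, had 4.69, 3.53 and 5.96 CPM in controls and 4.14, 3.66 and 3.30 CPM in SERTPyramid libraries labelled female. In libraries labelled male it had 4.59, 3.92 and 4.06 CPM in controls and 5.21, 3.14 and 3.36 CPM in SERTPyramid. The groups overlapped in both labelled sexes. Its log2 fold changes were -0.37 ± 0.20 and -0.11 ± 0.20 (SE), with edgeR adjusted p-values of 0.673 and 0.999. The value for libraries labelled female rested on single controls, at -0.16 without control replicate 3 and -0.54 without control replicate 2.

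Cygb, with the most counts of the 7 genes, had 83.4, 87.1 and 76.7 CPM in controls labelled female and 67.0, 57.8 and 68.5 CPM in SERTPyramid. In the controls labelled male it had 90.4, 60.5 and 82.5 CPM, and in SERTPyramid 89.0, 98.5 and 118.9 CPM. The female-labelled groups did not overlap, with SERTPyramid lower, whereas the male-labelled SERTPyramid libraries held the 2 highest values of all 12 and overlapped their controls through 1 library on each side. The log2 fold change of Cygb was -0.37 ± 0.15 (SE, edgeR adjusted p = 0.596) among libraries labelled female and 0.38 ± 0.15 (SE, edgeR adjusted p = 0.999) among those labelled male. Group means were 82.4 ± 5.25 and 64.4 ± 5.81 CPM for female-labelled controls and SERTPyramid, and 77.8 ± 15.5 and 102.2 ± 15.3 CPM for the male-labelled groups (SD, n = 3).

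Ngb had 2.21, 2.81 and 2.37 CPM in controls labelled female, 2.33, 2.75 and 2.41 CPM in SERTPyramid labelled female, 2.19, 1.76 and 2.53 CPM in controls labelled male, and 2.39, 1.85 and 2.84 CPM in SERTPyramid labelled male. All 4 groups overlapped. These values rest on 41 to 66 counts per library, and the coefficient of variation over the 12 libraries, 14.4%, was close to the 13.5% that counting alone gives. The log2 fold change among libraries labelled female was 0.00 in size, with a 95% interval of -0.39 to 0.39. Differences within that interval are compatible with these counts, and the interval does not give the size that could have been detected.

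Set against the whole table, 0 of the 7 genes and 0% of the 17631 genes tested passed an adjusted p of 0.05 in each comparison. At an unadjusted p under 0.05, edgeR gave 3 of the 7 genes among libraries labelled female (Hbb-bs, Hbb-bt and Cygb), against 8.04% of all genes, and 1 of 7 among those labelled male (Cygb), against 3.16%. The groups did not overlap for 3 of the 7 genes among libraries labelled female, all lower in SERTPyramid, where 9.38% of all genes were lower and 18.9% did not overlap in either direction. Among libraries labelled male the groups did not overlap for 0 of 7 genes, against 6.93%. The log2 fold change was below 0 for 7 of 7 genes among libraries labelled female, with a median over all genes tested of -0.000375, and above 0 for 5 of 7 among those labelled male, with a median of 0.00159. The female-labelled count includes Ngb, whose value was above 0 with library totals alone as the scaling. The alpha genes are near-identical copies of each other, as are the beta genes, so these counts do not rest on 7 separate measurements. The 7 genes were also chosen with earlier results of these data known, and no excess over the shares of all genes was tested. Fitted on the 6 libraries labelled female alone, edgeR called Hbb-bs (-0.32, adjusted p = 0.0211) and Cygb (-0.37, adjusted p = 0.0220) among 415 genes. Without a low-count filter edgeR called Hbb-bs (adjusted p = 0.00714) among 103 genes, but not Cygb (adjusted p = 0.807). Hbb-bt was called in neither fit (edgeR adjusted p = 0.0656 and 0.101). The number of genes tested in these fits is not given here, so no share of all genes stands beside these calls.

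The difference between the 2 labelled sexes was tested as an interaction, female minus male. Cygb had the largest such value of the 7 genes, -0.75 ± 0.22 (SE), a rank of 86 among 17631 genes by p, with an edgeR adjusted p of 0.999. The interaction was -0.40 ± 0.17 for Hbb-bs, -0.37 ± 0.17 for Hbb-bt, -0.42 ± 0.22 for Hba-a2, -0.30 ± 0.19 for Hba-a1, -0.26 ± 0.28 for Alas2 and -0.12 ± 0.27 for Ngb (SE, edgeR adjusted p = 0.999 each). Without SERTPyramid replicate 1 labelled male it was -0.24 for Hbb-bs, -0.23 for Hba-a2 and -0.13 for Hba-a1, and without SERTPyramid replicate 3 labelled female -0.24 for Hbb-bt. Cygb, Hbb-bs and Hbb-bt were the 3 of 7 genes at an unadjusted p under 0.05, against 4.45% of all genes, with the near-identical Hbb-bs and Hbb-bt again counted apart. With control replicate 1 of both labels left out, the libraries that match their labelled sex, the interaction was -0.86 for Cygb, -0.51 for Hbb-bs and -0.46 for Hbb-bt, and edgeR called 0 genes. Averaged over the labelled sexes, the genotype difference was -0.21 ± 0.09 for Hbb-bt (SE, edgeR adjusted p = 0.756), -0.12 ± 0.09 for Hbb-bs, -0.24 ± 0.14 for Alas2, -0.06 ± 0.11 for Hba-a2 and at most 0.06 in size for the other members, with 1 of 7 genes at an unadjusted p under 0.05 against 6.49% of all genes.

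**Figure D2:**
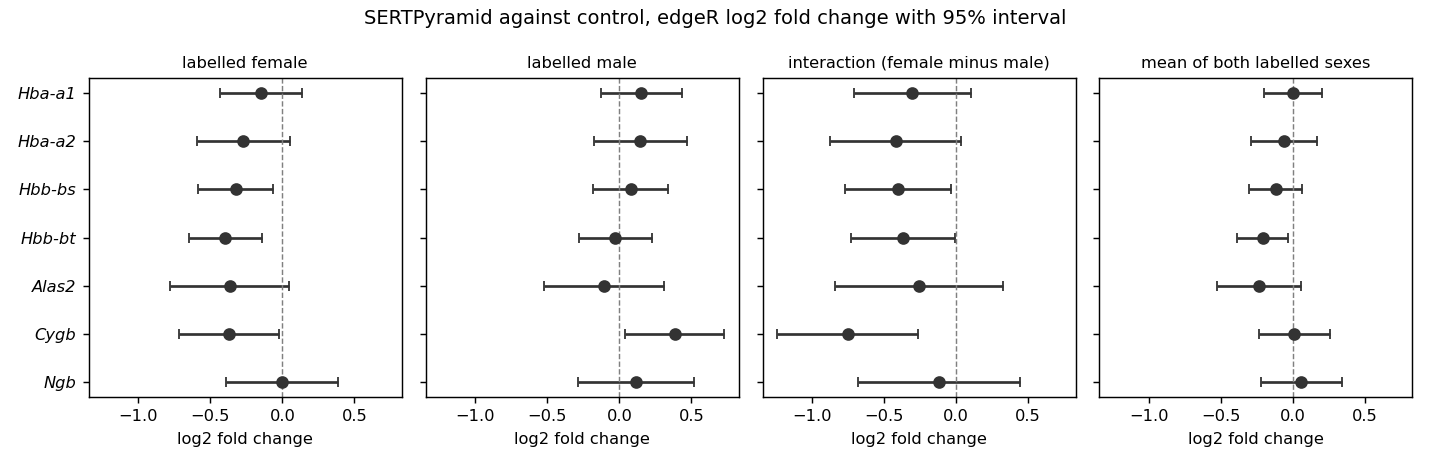
Log2 fold change of SERTPyramid against control (horizontal axes) for the 7 genes in the 4 comparisons, each from edgeR with its 95% interval; the dashed line is 0. The intervals of Hbb-bs, Hbb-bt and Cygb lie below 0 among libraries labelled female, that of Cygb lies above 0 among libraries labelled male, and 0 of 7 genes passed after adjustment over 17631 genes.

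Summed over the 4 genes, blood globin mRNA made up 51.3 ± 6.62 CPM (SD, n = 12), from 40.5 CPM in SERTPyramid replicate 3 labelled female to 64.0 CPM in SERTPyramid replicate 1 labelled male. The group means were 56.6 ± 3.92 CPM in controls and 46.5 ± 5.15 CPM in SERTPyramid labelled female, and 49.5 ± 2.71 and 52.7 ± 10.3 CPM in the male-labelled groups (SD, n = 3). Hbb-bt made up 20.2% (exact 95% binomial interval 17.2 to 23.4) to 23.7% (20.96 to 26.6) of the beta globin counts, and Hba-a2 35.4% (30.3 to 40.8) to 45.8% (39.3 to 52.4) of the alpha globin counts. Beta counts were 2.42 to 3.14 times the alpha counts, and Alas2 gave 6.48 to 9.75 counts per 100 blood globin counts. These ratios, and those to Cygb and Ngb below, depend on how reads shared between copies were counted.

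Cygb, set against the blood globins within each library, had 1.16 to 2.36 times the counts of the 4 blood globins together. The 2 highest ratios, 2.36 and 2.25, belonged to SERTPyramid replicates 3 and 2 labelled male, and the other 10 libraries lay between 1.16 and 1.73. The mean ratio was 1.46 ± 0.184 in controls and 1.40 ± 0.266 in SERTPyramid labelled female, and 1.56 ± 0.236 and 2.00 ± 0.530 in the male-labelled groups (SD, n = 3). The blood globins had 16.8 to 26.8 times the counts of Ngb.

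Across the 12 libraries the blood globins and Alas2 varied together. The closest pair was Hbb-bs and Hbb-bt, near-identical copies, with a Pearson r of 0.897 and a Spearman rho of 0.958 on log2 CPM (2-sided permutation p = 2e-05 and 3e-05, adjusted over 21 pairs 0.00042 for r), and r was 0.91 without the 2 libraries farthest from the median of Hbb-bs. Pairs from different chromosomes followed. Hbb-bs and Hba-a2 had r = 0.828 and rho = 0.776 (permutation p = 0.00113 and 0.00453, adjusted p = 0.0110 for r), and Hbb-bs and Alas2 had r = 0.803 and rho = 0.769 (permutation p = 0.00157 and 0.00494, adjusted p = 0.0110 for r). Without the 2 farthest libraries these were 0.684 and 0.547, and as deviations from group means 0.814 and 0.806. Of the 10 pairs among the 4 blood globins and Alas2, 7 passed after adjustment by r and 6 by rho, with r from 0.475 to 0.897 over the 10. The 7 include both pairs of near-identical copies, which can share reads, so the 10 pairs are not separate measurements. The 3 that did not pass by r were Hba-a1 with Hbb-bs, Hbb-bt and Alas2. The pair Hba-a1 and Hba-a2 had r = 0.724 and rho = 0.580 (permutation p = 0.00778 and 0.0527, adjusted p = 0.0233 for r), but r was 0.333 without SERTPyramid replicate 1 labelled male and replicate 3 labelled female, so it rested on those libraries.

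For Cygb and Ngb no relation with the red cell genes passed. With these 5 genes, r ran from -0.09 to 0.31 for Cygb and from -0.10 to 0.28 for Ngb, and 0 of these 10 pairs passed. As deviations from group means, Cygb gave r of -0.66 to -0.16 with the 5. The pair Cygb and Ngb had r = 0.153 and rho = 0.021 (permutation p = 0.634 and 0.956). The within-label values differed for some pairs: Hbb-bs and Cygb had r = 0.593 over the 6 libraries labelled female and 0.098 over the 6 labelled male, whereas Hbb-bs and Hbb-bt had 0.959 and 0.896.

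**Figure D3:**
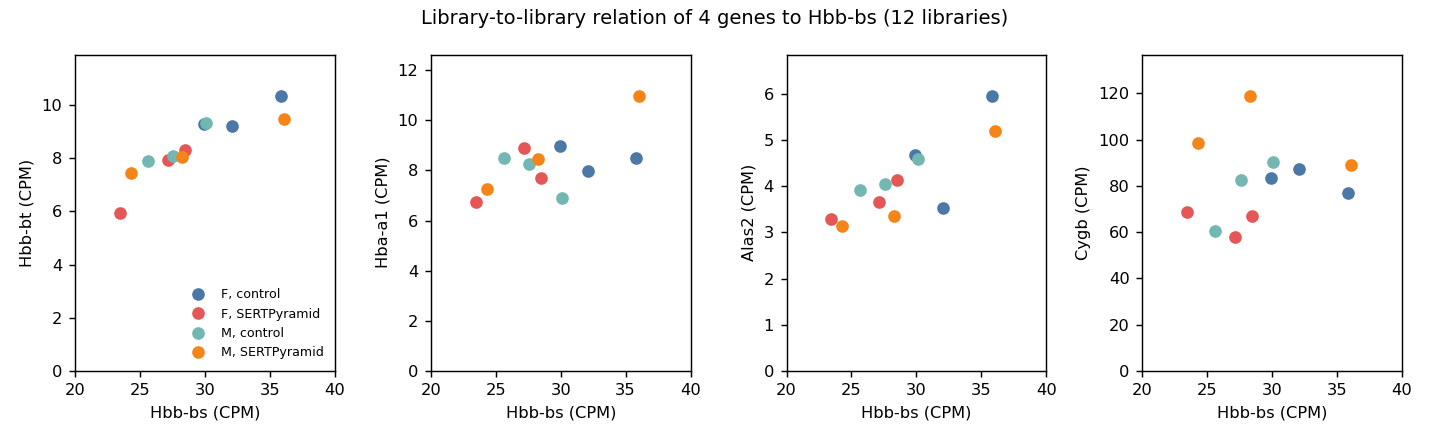
CPM of Hbb-bt, Hba-a1, Alas2 and Cygb (vertical axes) against Hbb-bs (horizontal axes, from 20 to 40) in the 12 libraries, coloured by labelled sex and genotype. Hbb-bt and Alas2 follow Hbb-bs (r = 0.897 and 0.803 on log2 CPM), Hba-a1 does so less (r = 0.583), and Cygb has r = 0.221.

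Likeness to other genes was measured by Pearson r of log2 CPM over the 12 libraries among 12681 genes outside the 7, as a description. A member's place is counted against those genes alone, leaving out the other members. For likeness to Hbb-bs, Hbb-bt came in place 1, Hba-a2 in place 6 and Alas2 in place 11, while Hba-a1 came in place 269, Ngb in place 2199 and Cygb in place 2918. Outside the 7 genes, those most like Hbb-bs were Tapt1 (r = 0.879), Ctbs (0.869), Cul4a (0.837), Plk4 (0.833) and Gabpa (0.833). For Cygb they were Fkbp1a (0.970), Rab5if (0.966), Hepacam (0.964), Hcn2 (0.963) and Pnrc1 (0.962). For Ngb they were Rasa4 (0.856), Tagap1 (0.851), Vdac3 (0.841), Ten1 (0.834) and Zbed4 (0.821). Hepacam is an astrocyte adhesion gene and Hcn2 a pacemaker channel gene.

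The embryonic globins of the same loci were at or near 0. Hba-x, Hbb-bh0, Hbb-bh1 and Hbb-bh2 had 0 counts in all 12 libraries, which allows up to 0.160 CPM, and Hbb-y had 0 or 1. Myoglobin (Mb) had 1 to 11 counts, the theta globins Hbq1a and Hbq1b 7 to 22 and 9 to 25, and androglobin (Adgb) 25 to 80. Of these 9 genes 3 were tested and 0 were called. Adgb had an average log2 fold change of 0.63 ± 0.20 (SE, edgeR adjusted p = 0.756), Hbq1a -0.43 ± 0.25 and Hbq1b 0.12 ± 0.25.

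The rest of the haem pathway was followed as a list of enzymes and transporters. All 13 genes of the pathway list were tested and 0 were called, with a median log2 fold change of 0.01 among libraries labelled female and 0.03 among those labelled male. Alas1, the general counterpart of Alas2, had 48.1 to 55.1 CPM and a log2 fold change of -0.01 ± 0.05 among libraries labelled female (SE, edgeR adjusted p = 0.966). Averaged over the labelled sexes, the smallest p-values included those of the iron importer of mitochondria Slc25a37 (0.25 ± 0.09) and of Ppox (0.24 ± 0.10). Urod had 0.04 ± 0.05, and Ppox and Urod are enzymes of the pathway (SE, edgeR adjusted p = 0.756 to 0.891 for these genes). Among libraries labelled female Slc25a37 had 0.36 ± 0.12 (SE, edgeR adjusted p = 0.541), opposite in sign to Alas2 and the blood globins. In haem breakdown and scavenging, 8 of 10 genes were tested and 0 called, and Hmox1, the inducible haem oxygenase, had 0.07 ± 0.09 (SE, edgeR adjusted p = 0.892), beside Blvrb 0.12, Cd163 0.11 and Blvra 0.06. In iron uptake and storage, 10 of 11 were tested and 0 called, with Ireb2, an iron-sensing RNA-binding protein, at -0.09 ± 0.03 (SE, edgeR adjusted p = 0.756), Ncoa4 at -0.08, Fth1 at -0.04 and Aco1 at -0.03. Of 15 hypoxia response genes 0 were called, with Hif1a at -0.07, Kdm3a at 0.11, Vegfa at 0.10 and Ero1l at 0.10.

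Markers of red cells other than globins and Alas2 were scarce. The band 3 gene Slc4a1 had 7 to 19 counts in 11 libraries and 67 in SERTPyramid replicate 2 labelled female, and Epb42 had 0 to 5, Hemgn 0 to 4, Rhag 0 to 2, Klf1 1 to 9 and Gata1 0 or 1. The list of 22 red cell genes had 21 in the table and 10 tested, 0 called. Its abundant members included Tmcc2 and Sptb (means 356 and 178 CPM), which neurons also express. The library with 67 Slc4a1 counts had a blood globin sum of 49.6 CPM, within the range of the others.

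Markers of other cell types were set beside these values. All 10 choroid plexus genes and all 12 endothelial genes had a log2 fold change below 0 among libraries labelled female, medians -0.44 and -0.14, with 0 called in either list. Of all genes tested 49.9% were above 0. The choroid plexus values were imprecise, with Ttr at -0.73 ± 1.08 (SE). Also below 0 were 9 of 10 hippocampal neuron, 8 of 10 iron and 4 of 5 microglia genes. In the meningeal fibroblast and astrocyte lists 5 of 10 and 3 of 6 were below 0. The SERTPyramid replicate 3 labelled female that had the fewest choroid plexus reads, 32.0 CPM, had the lowest blood globin sum, and SERTPyramid replicate 1 labelled male had the highest of both, 2535 CPM and 64.0 CPM. Over the 12 libraries, summed choroid plexus CPM and Hbb-bt had r = 0.798 and rho = 0.587 (permutation p = 0.00614 and 0.0491, adjusted over 14 relations 0.086 and 0.229), and r was 0.264 without the 2 farthest libraries, so the relation rested on those. With Hbb-bs, choroid plexus markers had r = 0.625 and rho = 0.601 (permutation p = 0.0162 and 0.0424, adjusted 0.113 and 0.229), and r was 0.405 without the same 2 libraries. The endothelial sum, 363 to 487 CPM, had r = 0.600 and rho = 0.615 with Cygb (permutation p = 0.0377 and 0.0382, adjusted 0.176 and 0.229), and r was 0.569 without the 2 farthest libraries. With Alas2, Hbb-bs, Hba-a1, Hba-a2 and Hbb-bt the endothelial sum had r = -0.01, 0.04, 0.10, 0.16 and 0.29. These 14 relations were chosen after the values were seen, 0 passed after adjustment, and the part of either tissue in the globin differences was not tested.

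**Figure D4:**
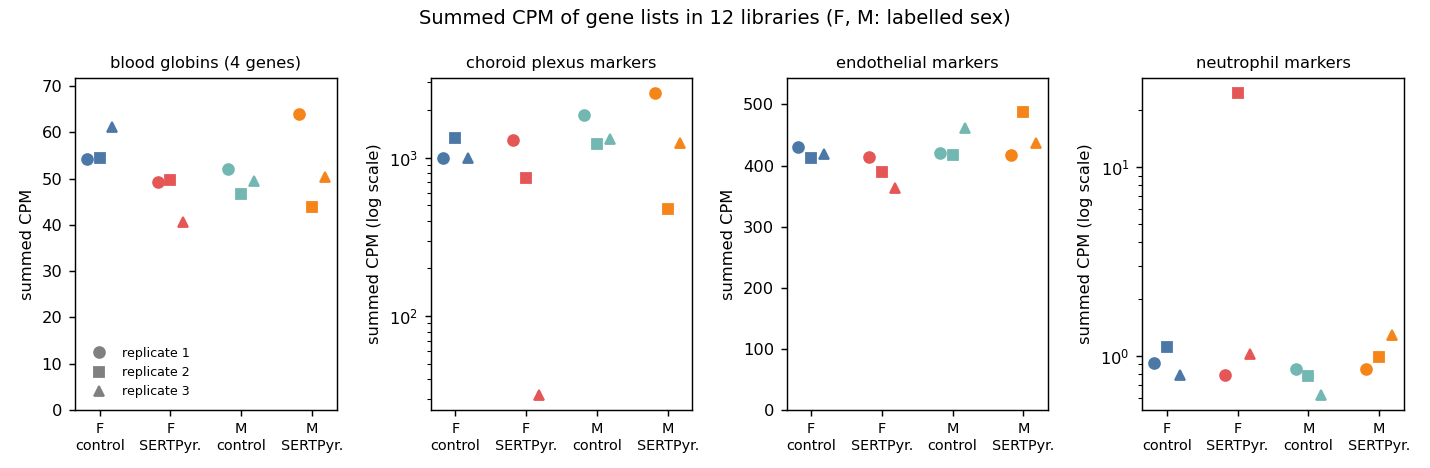
Summed CPM of the 4 blood globins and of the choroid plexus, endothelial and neutrophil marker lists in the 12 libraries, by labelled sex (F, M) and genotype, with symbols for replicates; the choroid plexus and neutrophil axes are logarithmic. Choroid plexus markers run from 32.0 to 2535 CPM, and neutrophil markers are at 24.5 CPM in SERTPyramid replicate 2 labelled female.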

How the data were processed

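The deposited values are raw counts per Ensembl gene, made by the authors from TruSeq RNA v2 libraries, per the labels' protocols, a kit that does not mark strand. The build is mm10, per the submitters' processing notes. Not given in the sources used here were the aligner, the counter's settings and the annotation. Columns were matched to samples by title, 0 were left unmapped, and 0 entries named no gene. CPM and RPKM were computed from these counts with library totals and GENCODE M21 exon lengths.

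Genes kept by filterByExpr, 17631, were scaled by TMM and tested with edgeR 4.0.16 (R 4.3.3), quasi-likelihood F test with robust dispersion, all 12 libraries in 4 groups, and adjusted by Benjamini-Hochberg with a threshold of 0.05. Standard errors were derived from the fold change and its F statistic. For correlations, log2 CPM had a prior count of 2, and 100000 permutations were drawn. Alternatives were DESeq2 1.42.0, limma 3.58.1 voom, other scalings, filters and thresholds, a replicate block, the compared groups alone, and leaving out libraries.

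The members and the gene lists were chosen with earlier results of these data known. All 7 members were named. From another list up to 4 genes with the smallest p in the averaged comparison were named, and for levels up to 4 with the highest mean CPM. For likeness, the 5 genes with the highest r and a mean log2 CPM of at least 1 were named, without predicted genes. Some genes that these rules take are not reported here. Red cell markers given by count, and Alas1 with its fold change, were chosen after their values were seen. Of 5 members RefSeq promoters were at hand, and for 2, Cygb and Ngb, none was used. Libraries of a group differed by more than sampling noise (chi-square over degrees of freedom 2.52 to 13.8).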

Additional observations from a re-analysis of the deposited data

How the results depend on the processing

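Over all settings, 570 of the member log2 fold changes kept their direction and their side of the threshold, 36 changed sign and 3 passed it, namely those of Hbb-bs and Cygb given above. The count of genes called, 0 in each comparison, was 1 with DESeq2 among libraries labelled female and 1 for the interaction. Without a low-count filter it was 103 (female), 5 (male), 14 (interaction) and 66 (average), and 415 with the groups labelled female alone. Leaving out 1 library gave 0 to 2 (female) and 0 to 144 (average), both highest without male SERTPyramid replicate 2, and 0 otherwise, and the cause of these shifts was not tested. Values near 0 changed sign: Ngb (female) was 0.015 with library totals and 0.0047 with voom, Hba-a1 (average) -0.0123 with voom and -0.0171 without both control replicates 1, and Hbb-bt (male) 0.0417 without these. With 1 library left out, ranges that crossed 0 were, for females, Ngb -0.072 to 0.11. For males they were Hba-a1 -0.022 to 0.27, Hba-a2 -0.041 to 0.27, Hbb-bs -0.084 to 0.19, Hbb-bt -0.13 to 0.042, Alas2 -0.37 to 0.015 and Ngb -0.024 to 0.26. For the interaction they were Alas2 -0.43 to 0.0039 and Ngb -0.26 to 0.022, and for the average Hba-a1 -0.085 to 0.060, Cygb -0.076 to 0.066 and Ngb -0.016 to 0.13. Female ranges were -0.38 to -0.25 for Hbb-bs, -0.48 to -0.27 for Hbb-bt, -0.37 to -0.20 for Hba-a2, -0.25 to -0.063 for Hba-a1 (the ends without SERTPyramid replicates 2 and 3), -0.54 to -0.16 for Alas2 and -0.42 to -0.30 for Cygb, whose male range was 0.23 (without control replicate 2) to 0.50. Interaction ranges were -0.51 to -0.24 for Hbb-bs, -0.46 to -0.24 for Hbb-bt, -0.54 to -0.23 for Hba-a2, -0.42 to -0.13 for Hba-a1 and -0.87 to -0.60 for Cygb. Correlations ranged from -0.14 to 0.39 for Cygb with Ngb, 0.51 to 0.86 for Hba-a1 with Hba-a2 and 0.37 to 0.70 for Hba-a1 with Hbb-bs. As deviations from group means, Hba-a1 with Hba-a2 had r = 0.663 (permutation adjusted p = 0.0507) and Hbb-bs with Cygb had r = -0.157. That permutation mixed all 12 libraries although the deviations were centred by group, so this p can be too small. Group means of the blood globin sum moved to 54.4 to 57.8, 44.9 to 49.5, 48.1 to 50.8 and 47.1 to 57.2 CPM in the order given above. With the replicate number as a block, edgeR called 0 genes in each comparison and Hba-a1 (average) was -0.0028. Of 18 same-numbered pairs of libraries, 2 had deviations correlated above 0.1, and 3 of 12 libraries correlated best with their own number, so the numbers were not taken to pair samples. Depth limits Ngb most, at 41 to 66 counts.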

Other observations

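Neutrophil and marrow transcripts stood out in 1 library without a matching level of globins. In SERTPyramid replicate 2 labelled female the 10 neutrophil genes summed to 24.5 CPM, against 0.62 to 1.29 CPM in the other 11 libraries. Ngp, a neutrophil granule gene, had 135 counts there and 0 to 3 elsewhere. S100a9 had 107 against 0 to 10, Ltf (lactotransferrin) 91 against 0 to 8, S100a8 61 against 0 to 5, Camp 39 against 0 to 5, Lcn2 31 against 0 to 5, Mpo (myeloperoxidase) 43 against 4 to 15 and Elane 5 against 0 or 1. The red cell membrane gene Slc4a1 had 67 counts against 7 to 19. Hbb-bs had 572 counts and Alas2 77 counts in that library, 27.2 and 3.66 CPM, inside the range of the other 11. The platelet list summed to 28.3 to 33.7 CPM and the lymphocyte list to 0.75 to 1.78 CPM over the 12 libraries.

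Spread beyond counting error differed between the 7 genes. Over the 12 libraries the coefficient of variation was 21.1% for Cygb, where counting alone gives 2.30%, and 13.9% for Hbb-bs, where it gives 3.86%. For Hba-a1, Hba-a2, Hbb-bt and Alas2 it was 13.7%, 15.6%, 13.8% and 20.6%, against 7.23%, 8.83%, 7.16% and 10.2% from counting.

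The other marker lists held 0 called genes. Median log2 fold changes among libraries labelled female were -0.07 for 8 pericyte and smooth muscle genes, 0.10 for 10 meningeal fibroblast genes, -0.07 for 10 hippocampal neuron genes, 0.02 for 6 genes of nitric oxide and somatostatin interneurons, 0.00 for 6 astrocyte genes and -0.05 for 5 microglia genes.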
